A study of Mus musculus with 13 samples.

Results

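Glutamate and GABA receptor subunit genes were described in brain RNA from mice with and without microglia, after a transient stroke or sham surgery. Members were the genes whose symbol begins with Gria, Grin, Grik, Grid or Grm followed by a digit, or with Gabra, Gabrb, Gabrg, Gabrd, Gabre, Gabrq, Gabrr or Gabbr. The rule found 48 genes, of which 45 were in all 4 deposited tables, among 21056 genes in all. Of the 45, 43 passed the filter on low counts and were tested. The other two, Gabrr1 and Gabrr3, had at most 6 and 5 counts in any library. Gabra6 and Grm6 were listed only in the stroke tables, with at most 7 and 2 counts in a library. Grin1os, an antisense RNA opposite Grin1, was listed only in the sham tables, with 3 counts in replicate 2 of sham_DE and 0 elsewhere. Grid2ip, which the rule also takes, encodes a protein that binds a delta receptor and is not itself a subunit.

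The study used male mice of genotype CX3CR1creER/+ with a Cre-dependent diphtheria toxin receptor at the Rosa locus (iDTR/+). Cx3cr1 drives this tamoxifen-dependent Cre in microglia and also in other mononuclear phagocytes. All groups received 2 doses of tamoxifen by gavage at 7 to 8 weeks of age. The groups called DE were then given diphtheria toxin, 50 ng per g body weight, on 3 days starting 30 days later, and the CON groups normal saline. The groups called tMCAO had the right middle cerebral artery occluded by a filament for 60 min, and the others sham surgery, which gave 3 libraries of sham_CON, 4 of sham_DE, 4 of tMCAO_CON and 2 of tMCAO_DE. The surgery protocol gives an age of 6 to 8 weeks, which does not match tamoxifen at 7 to 8 weeks followed by 30 days. The sources used here give neither the part of the brain sampled nor the time after occlusion, and the number of the Rosa locus differs between the labels of the libraries. The title placed replicate 4 of tMCAO_CON in that group, although its treatment entry names sham surgery.

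Libraries held 16239763 to 22080367 counts. Summed microglial markers (6 genes) were 225 to 254 CPM (counts scaled to library size) for sham_CON, 218 to 278 for tMCAO_CON, 26.0 to 52.8 for sham_DE and 29.6 to 32.2 for tMCAO_DE. Cortical projection neuron markers (6 genes) summed to 1550 CPM or more in every library, with Slc17a7 alone at 1188 CPM or more. Striatal projection neuron markers (7 genes) summed to 124.8 CPM or more in every library, and to 383 to 421.7 CPM in tMCAO_DE. Among these, the dopamine receptor Drd1 reached at most 8.64 CPM, while Ppp1r1b lay between 68.3 and 372 CPM. Pcp2, a marker of cerebellar Purkinje cells, reached at most 0.294 CPM. Markers of neutrophils and monocytes reached 24.77 CPM in replicate 2 of sham_CON and 24.75 CPM in replicate 3 of sham_DE, against at most 8.74 CPM in the stroke groups. Nearly all of this was S100a8 (8.5 and 8.1 CPM) and S100a9 (15.6 and 16.5 CPM), while Ly6g and Ccr2 were at 0.479 CPM or less in these libraries. Calls were therefore also counted without these libraries together.

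Glutamate acts on ligand-gated cation channels built from AMPA, NMDA and kainate subunits, and on metabotropic receptors coupled to G proteins. GABA, the main inhibitory transmitter, acts on GABA-A receptors, which are chloride channels that most often combine alpha, beta and gamma or delta subunits, and on GABA-B receptors, which are obligate heterodimers of Gabbr1 and Gabbr2. In ischaemia, extracellular glutamate rises and calcium entry through its receptors can injure neurons, which is the classical account of excitotoxicity. The values here are RNA levels, and receptor protein was not measured. In whole-tissue RNA, fewer cells of a type and less RNA per cell cannot be told apart.

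On the length-scaled FPKM scale (fragments scaled to transcript length and library size), the GABA-B subunits Gabbr2 and Gabbr1 averaged 63.7 FPKM (55.5 to 73.0) and 52.9 (46.6 to 59.1) over the 13 libraries, and these ranges overlapped. Among glutamate receptors the highest of each class were Grin1, the obligate NMDA subunit, at 43.0 FPKM, the kainate subunit Grik5 at 35.3, the AMPA subunit Gria2 at 35.3, the metabotropic receptor Grm5 at 16.5 and the delta receptor Grid1 at 8.46. At the other end were the NMDA subunit Grin3b at 0.114 FPKM and the GABA-A subunits Gabrq, Gabre, Gabrr3 and Gabrr1 at 0.0792 or less.

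**Figure D1:**
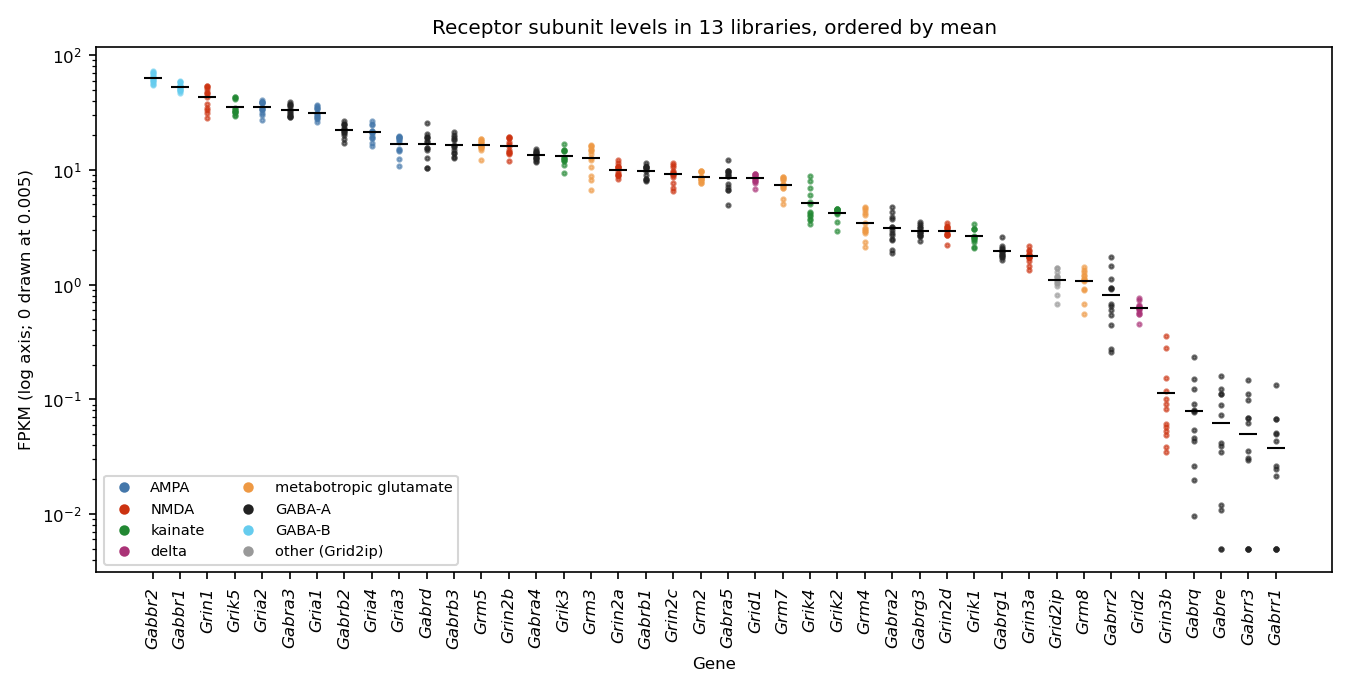
FPKM (log axis) of 42 receptor genes in all 4 tables, 1 point per library, with the mean over 13 libraries as a dash and colours for the receptor class. Genes run from Gabbr2 at 63.7 FPKM to Gabrr1 at 0.0373, and values of 0 are drawn at 0.005.

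Promoter sequence is shown for the 4 genes that passed the test in 2 comparisons or more and have exactly 1 entry in the RefSeq table (build GRCm38.p6, 250 bases before to 50 after the start), because 1 of them was called higher and the other 3 lower. Grik4 lies at chr9:42944322-42944621, Grm3 at chr5:9725303-9725602, Gria2 at chr3:80802786-80803085 and Grik2 at chr10:49788705-49789004, all on the minus strand. Capitals mark the SP1 GC box GGGCGG on either strand.
Grik4: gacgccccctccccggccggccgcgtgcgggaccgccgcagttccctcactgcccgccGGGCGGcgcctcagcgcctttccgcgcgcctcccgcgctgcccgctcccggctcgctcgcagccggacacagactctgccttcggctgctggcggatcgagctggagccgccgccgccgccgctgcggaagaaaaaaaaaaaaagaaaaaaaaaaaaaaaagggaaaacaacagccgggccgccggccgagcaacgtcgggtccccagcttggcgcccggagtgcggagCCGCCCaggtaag
Grm3: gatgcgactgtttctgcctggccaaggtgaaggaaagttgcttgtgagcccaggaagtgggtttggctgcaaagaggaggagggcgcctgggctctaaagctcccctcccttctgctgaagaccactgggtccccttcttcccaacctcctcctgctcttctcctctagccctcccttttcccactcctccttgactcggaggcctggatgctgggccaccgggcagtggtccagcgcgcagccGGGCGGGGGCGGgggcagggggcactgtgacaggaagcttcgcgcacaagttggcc
Gria2: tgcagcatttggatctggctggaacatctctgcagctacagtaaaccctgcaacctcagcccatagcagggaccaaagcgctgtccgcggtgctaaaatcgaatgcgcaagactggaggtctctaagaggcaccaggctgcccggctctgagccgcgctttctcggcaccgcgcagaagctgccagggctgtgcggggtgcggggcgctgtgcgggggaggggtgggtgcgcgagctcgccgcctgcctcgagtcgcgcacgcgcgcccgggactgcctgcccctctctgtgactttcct
Grik2: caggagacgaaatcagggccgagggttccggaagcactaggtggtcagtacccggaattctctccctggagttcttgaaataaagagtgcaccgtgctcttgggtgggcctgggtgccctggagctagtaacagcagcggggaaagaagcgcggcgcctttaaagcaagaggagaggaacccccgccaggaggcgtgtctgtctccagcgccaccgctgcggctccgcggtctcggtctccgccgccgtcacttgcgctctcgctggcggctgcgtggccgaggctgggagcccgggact
Grik4, called higher, had the most GC-rich of these windows (70.0% GC, 42 CpG dinucleotides, 2 GC boxes). Grm3 had 63.7% GC, 11 CpG and 2 GC boxes that adjoin each other. Gria2 (65.7% GC) and Grik2 (64.7%) each had 26 CpG and no GC box. The median of all 32851 promoters in the table was 52.7% GC and 7 CpG. The same search found no CRE (TGACGTCA), TATA box (TATAAA) or EGR site (GCGTGGGCG) in the 4 windows. Over all promoters, 35.66% held a GC box, 1.79% a CRE, 13.62% a TATA box and 0.61% an EGR site. Of the 33 members with an entry, 19 held a GC box in at least 1 entry, 3 a TATA box and none a CRE or an EGR site. These counts are of genes, which had 41 entries, while the shares over all promoters are of entries, so they are not directly comparable.

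Changes were tested with edgeR on counts over 16940 genes and are given as log2 fold changes ± SE, with p-values adjusted over all genes tested and a threshold of 0.05. Stroke with microglia present (tMCAO_CON against sham_CON) lowered 6 members and raised none, where 8.44% of all genes were called (3.31% lower, 5.14% higher). The members' median log2 fold change was -0.16 against 0.02 for all genes, and 4 of 43 had a fold change above 0, against 8918 of 16940 genes. None was called higher by DESeq2 or limma either. At an unadjusted p under 0.05, 2 members, among them Gabrq, were higher, against 2224 of 16940 genes. In 14 members all tMCAO_CON libraries lay below all sham_CON libraries, which held for 10.5% of genes, and in 2 they lay above, which held for 13.1%.

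Stroke after depletion (tMCAO_DE against sham_DE) lowered 11 members and raised 1, where 12.4% of genes were called (5.84% lower, 6.59% higher), with a median of -0.24 against 0 for all genes. The groups did not overlap in 25 lower members (17.7% of genes) and 2 higher ones (19.5%). Depletion in mice with stroke (tMCAO_DE against tMCAO_CON) lowered 8 members and raised 3, where 18.6% of genes were called (9.26% lower, 9.36% higher), with a median of -0.17 against -0.01. The groups did not overlap in 21 lower members (22.9% of genes) and 5 higher ones (22.6%). Depletion without stroke (sham_DE against sham_CON) raised 1 member and lowered none, where 11.3% of genes were called (6.85% higher, 4.49% lower), with a median of -0.09 against 0. Its groups did not overlap in 3 higher members (12% of genes) and 4 lower ones (10.9%).

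The 4 comparisons share groups pairwise, and both that use tMCAO_DE rest on the same 2 libraries. With 1 of those libraries left out, most calls ended in both comparisons, among members and over all genes alike. In stroke with microglia, no member stayed past the threshold without replicate 3 of sham_CON, 2 did without replicate 2, and 3 did without replicate 1 of sham_CON or replicate 3 of tMCAO_CON. Of all genes, 3.33%, 5.97%, 3.94% and 5.54% were called in those fits, in that order, against 8.44% with all libraries. Without replicate 4 of tMCAO_CON the calls were 6 lower in stroke with microglia, 11 lower in stroke after depletion, and 4 higher with 8 lower in depletion with stroke. Of all genes, 7.35%, 11.3% and 14.1% were called, in the same order. The 6 were not the same set as with all libraries: Gabbr1 and Gabra3 were lost, and Grid1 and Grin1 were gained. Grin1 was also the added higher call in depletion with stroke.

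**Figure D2:**
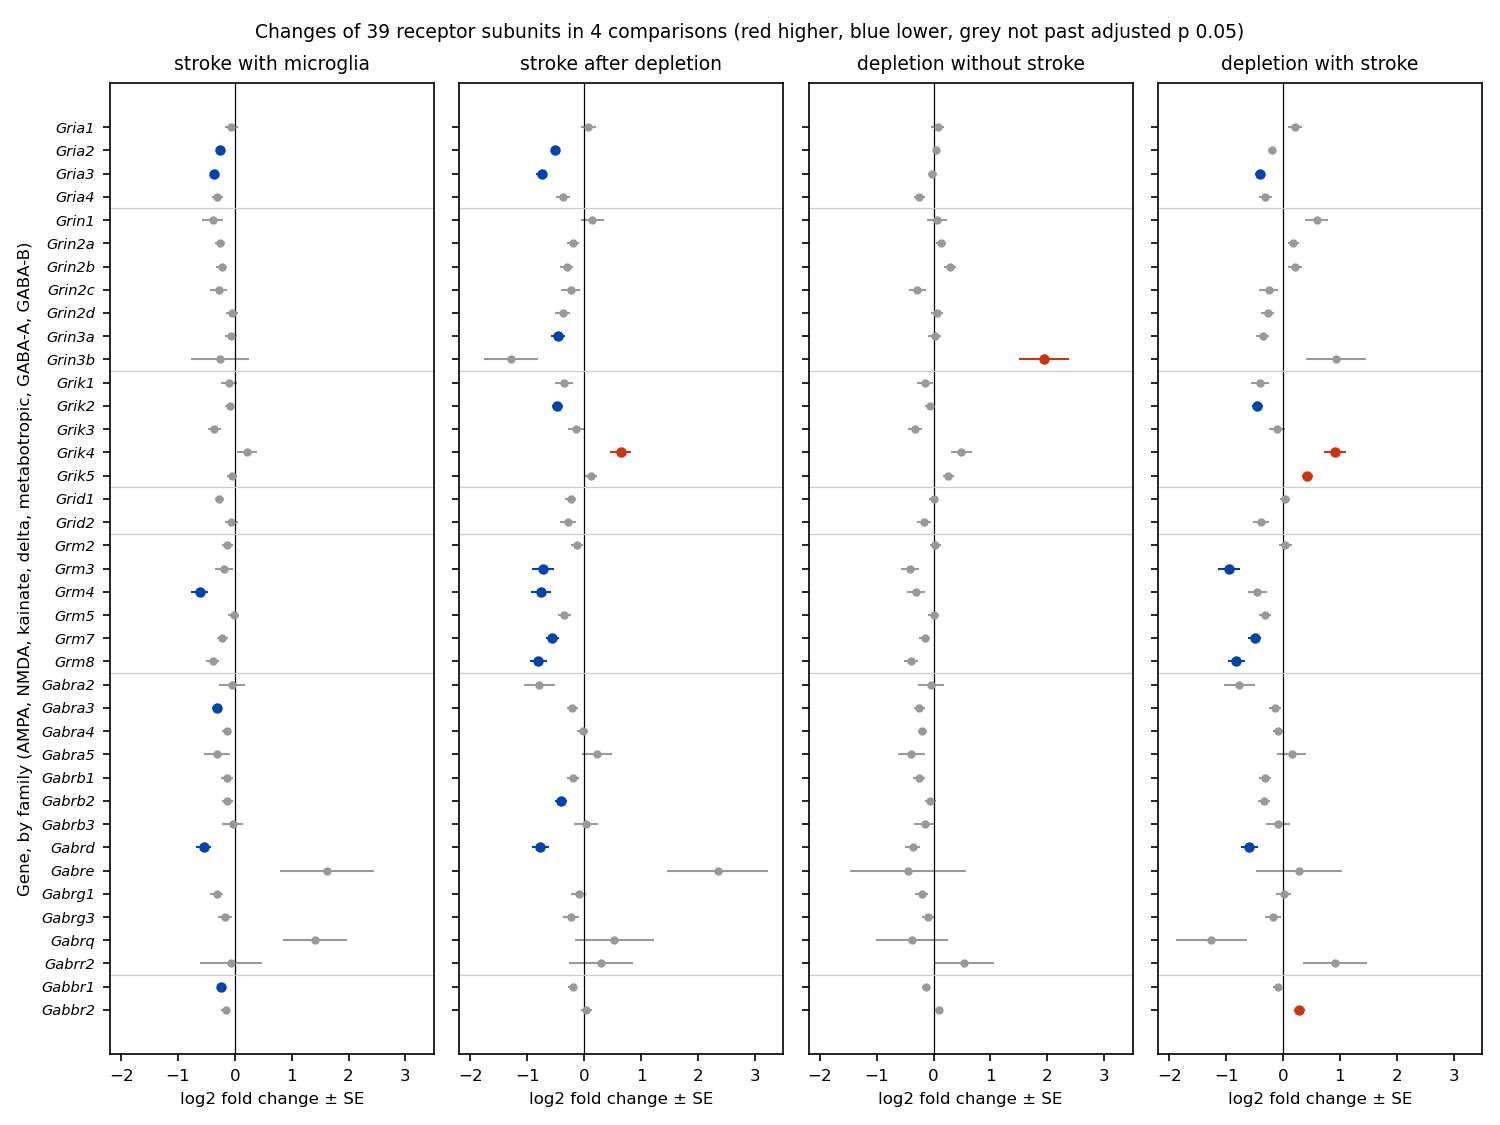
Log2 fold change ± SE (x axis) of 39 tested receptor subunits (y axis, by class) in 4 comparisons, Grid2ip left out. Blue points passed the threshold as lower (6, 10, 0 and 6 from left to right), red points as higher (0, 1, 1 and 3), and grey points did not pass.

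Of the AMPA subunits, Gria2 and Gria3 were lowered by stroke in both comparisons. Gria3, a channel subunit on chrX:41400854-41678601 (plus strand), was at 343, 362 and 377 CPM for sham_CON, 362, 347, 363 and 356 for sham_DE, 271, 268, 259 and 317 for tMCAO_CON and 197 and 227 for tMCAO_DE. Every stroke library lay below every sham library, and both tMCAO_DE libraries lay below all of tMCAO_CON. Gria3 fell by 0.37 ± 0.07 with stroke in the presence of microglia (adjusted p = 0.0094) and by 0.75 ± 0.09 after depletion (0.00043), and it was lower in tMCAO_DE than in tMCAO_CON, with a log2 fold change of -0.40 ± 0.09 (0.0098). The first call ended without replicate 3 of sham_CON (0.053) and the last without replicate 1 of tMCAO_DE (0.11).

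Gria2, the subunit whose edited form keeps AMPA channels nearly impermeable to calcium, was at 786, 875 and 873 CPM for sham_CON, 890, 860, 903 and 847 for sham_DE, 716, 659, 697 and 741 for tMCAO_CON and 579 and 653 for tMCAO_DE. The 6 stroke libraries lay below the 7 sham libraries. Its log2 fold change with stroke was -0.26 ± 0.06 with microglia (adjusted p = 0.022) and -0.51 ± 0.07 after depletion (0.0015). The first of these ended without replicate 2 (0.077) or 3 (0.10) of sham_CON or replicate 2 (0.055) or 3 (0.051) of tMCAO_CON, and the second held without each library in turn. Gria1 and Gria4 did not pass the test in any of the 4 comparisons. Gria4 had log2 fold changes of -0.37 to -0.25 (lowest adjusted p 0.057), and Gria1 of -0.06 to 0.21.

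Of 7 NMDA subunits, 2 passed the test, each in 1 comparison. Grin3a, a glycine-binding subunit that lowers calcium flux through NMDA receptors, was at 24.4 and 26.4 CPM in tMCAO_DE against 32.1 to 41.4 in sham_DE, a log2 fold change of -0.46 ± 0.12 (adjusted p = 0.03), which ended without replicate 1 (0.20) or 2 (0.12) of tMCAO_DE. It shares its strand with Ppp3r2, which lies within it. Grin3b, its close relative, was the only member called in depletion without stroke, and it rested on few reads. Its counts were 8, 3 and 5 for sham_CON and 15, 40, 10 and 25 for sham_DE, and 4 to 5 for tMCAO_CON and 9 to 10 for tMCAO_DE.

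The Grin3b log2 fold change with depletion was 1.95 ± 0.44 in sham mice (adjusted p = 0.018) and 0.93 ± 0.53 in stroke mice (0.23). The call ended without replicate 2 (0.065) or 3 (0.066) of sham_CON or replicate 2 or 4 of sham_DE (0.053 each). Grin3b overlaps Tmem259 on the opposite strand, and Tmem259 had a log2 fold change of -0.12 ± 0.06 (0.21) in the same comparison. Without knowing whether counting used strand, reads of the pair cannot be told apart.

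Grin1, the obligate NMDA subunit, varied widely within groups, at 443, 475 and 392 CPM in replicates 1 to 3 of tMCAO_CON and 689 in replicate 4, the library whose treatment entry names sham surgery. Its log2 fold change was -0.39 ± 0.18 with stroke (adjusted p = 0.21) and 0.59 ± 0.20 with depletion in stroke mice (0.059). Grin2a and Grin2b, the main forebrain GluN2 subunits, had log2 fold changes of -0.26 ± 0.09 (0.09) and -0.23 ± 0.10 (0.20) with stroke. With edgeR on all libraries, none of Grin1, Grin2a, Grin2b, Grin2c and Grin2d passed the test in any comparison. Without replicate 4 of tMCAO_CON, Grin1 was called lower in stroke with microglia and higher in depletion with stroke. DESeq2 on all libraries also called Grin1 higher in depletion with stroke. Grin2d was called lower in stroke after depletion by DESeq2 and by edgeR with the GC trend removed. The latter also called Grin2d lower in depletion with stroke. By limma (pseudocount 0.1), Grin2b was called higher in depletion without stroke.

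Among kainate subunits, values moved in opposite directions. Grik2, a principal channel-forming subunit, was at 33.5 and 40.5 CPM in tMCAO_DE and between 47.7 and 55.0 CPM in the other 11 libraries. Its log2 fold change was -0.47 ± 0.09 with stroke after depletion (adjusted p = 0.0063) and -0.45 ± 0.09 with depletion in stroke mice (0.0066), and both calls ended without replicate 1 of tMCAO_DE (0.099 and 0.082). In stroke with microglia it was -0.09 ± 0.08 (0.51). Grik2 contains 6 predicted genes on its own strand.

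Grik4 and Grik5, the high-affinity kainate subunits that need a principal subunit to form channels, were higher. Grik4 was at 26.3, 28.6 and 24.2 CPM for sham_CON, 28.5, 34.7, 36.4 and 48.6 for sham_DE, 24.8, 40.0, 27.5 and 29.4 for tMCAO_CON, and 54.3 and 60.8 for tMCAO_DE. Both tMCAO_DE libraries lay above the other 11. Grik4 rose by 0.92 ± 0.19 with depletion in stroke mice (adjusted p = 0.0082) and by 0.64 ± 0.19 with stroke after depletion (0.048). The first call ended without replicate 2 of tMCAO_DE (0.093). The second ended in 10 of the 13 fits that leave out a library, all but those without replicate 4 of sham_DE or replicate 1 or 2 of tMCAO_CON, with adjusted p from 0.055 to 0.27 in those 10.

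Grik5 was at 293 and 284 CPM in tMCAO_DE against 193, 231, 218 and 217 in tMCAO_CON, and rose by 0.43 ± 0.10 (adjusted p = 0.015). That call ended without replicate 1 (0.095) or 2 (0.098) of tMCAO_DE. In sham mice its log2 fold change with depletion was 0.26 ± 0.09 (0.093), with 226, 211 and 231 CPM in sham_CON and 234, 298, 238 and 293 in sham_DE, which did not overlap. Grik3 had a log2 fold change of -0.36 ± 0.12 with stroke (0.089) and -0.33 ± 0.12 with depletion in sham mice (0.10), and Grik1 did not pass in any comparison.

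Metabotropic receptors that couple to inhibitory G proteins held all 8 calls of their class, each of them lower. Among 7 metabotropic members tested, 1 was called in stroke with microglia, 4 in stroke after depletion and 3 in depletion with stroke. Over all genes, 3.31%, 5.84% and 9.26% were called lower, in the same order. Grm4, a presynaptic autoreceptor, was at 31.8, 27.9 and 30.0 CPM for sham_CON, 31.1, 26.3, 20.4 and 18.5 for sham_DE, 19.0, 18.5, 21.3 and 19.0 for tMCAO_CON, and 14.9 and 13.6 for tMCAO_DE. Its log2 fold change with stroke was -0.62 ± 0.15 with microglia (adjusted p = 0.02) and -0.76 ± 0.17 after depletion (0.015). The first ended without replicate 1 (0.08) or 3 (0.072) of sham_CON, and the second without replicate 1 (0.08) or 2 (0.13) of tMCAO_DE.

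Grm3, which is found on astrocytes as well as neurons, was at 52.6, 43.0 and 51.6 CPM for sham_CON, 47.2, 38.8, 33.1 and 27.4 for sham_DE, 44.6, 36.4, 47.0 and 44.1 for tMCAO_CON, and 24.4 and 20.3 for tMCAO_DE. The tMCAO_DE libraries were the lowest of the 13. Grm3 fell by 0.95 ± 0.19 with depletion in stroke mice (adjusted p = 0.0066) and by 0.72 ± 0.19 with stroke after depletion (0.026). The first ended without replicate 2 of tMCAO_DE (0.094) and the second without replicate 1 (0.084) or 2 (0.22). The summed astrocyte markers (6 genes) were 2026 to 2618 CPM for tMCAO_CON and 1961 to 2097 for tMCAO_DE, and their part in the Grm3 values was not tested.

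Grm8, another presynaptic receptor, was at 17.0 to 18.7 CPM for sham_CON, 11.3 to 14.5 for sham_DE, 11.1 to 14.9 for tMCAO_CON, and 6.83 and 8.46 for tMCAO_DE. It fell by 0.82 ± 0.15 with depletion in stroke mice (adjusted p = 0.0042) and by 0.81 ± 0.15 with stroke after depletion (0.0053), and both calls ended without replicate 1 of tMCAO_DE (0.053 and 0.076). In stroke with microglia its log2 fold change was -0.39 ± 0.12 (0.069), and in depletion without stroke -0.40 ± 0.12 (0.053), with groups that did not overlap in either. Grm7, the low-affinity presynaptic receptor, was at 36.5 and 40.3 CPM in tMCAO_DE and between 49.4 and 65.6 in the other 11 libraries. Its log2 fold change was -0.50 ± 0.11 with depletion in stroke mice (0.012) and -0.56 ± 0.11 with stroke after depletion (0.0091), and both calls ended without either library of tMCAO_DE (0.053 to 0.11). Grm5, which couples to phospholipase C, and Grm2 did not pass in any comparison.

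**Figure D3:**
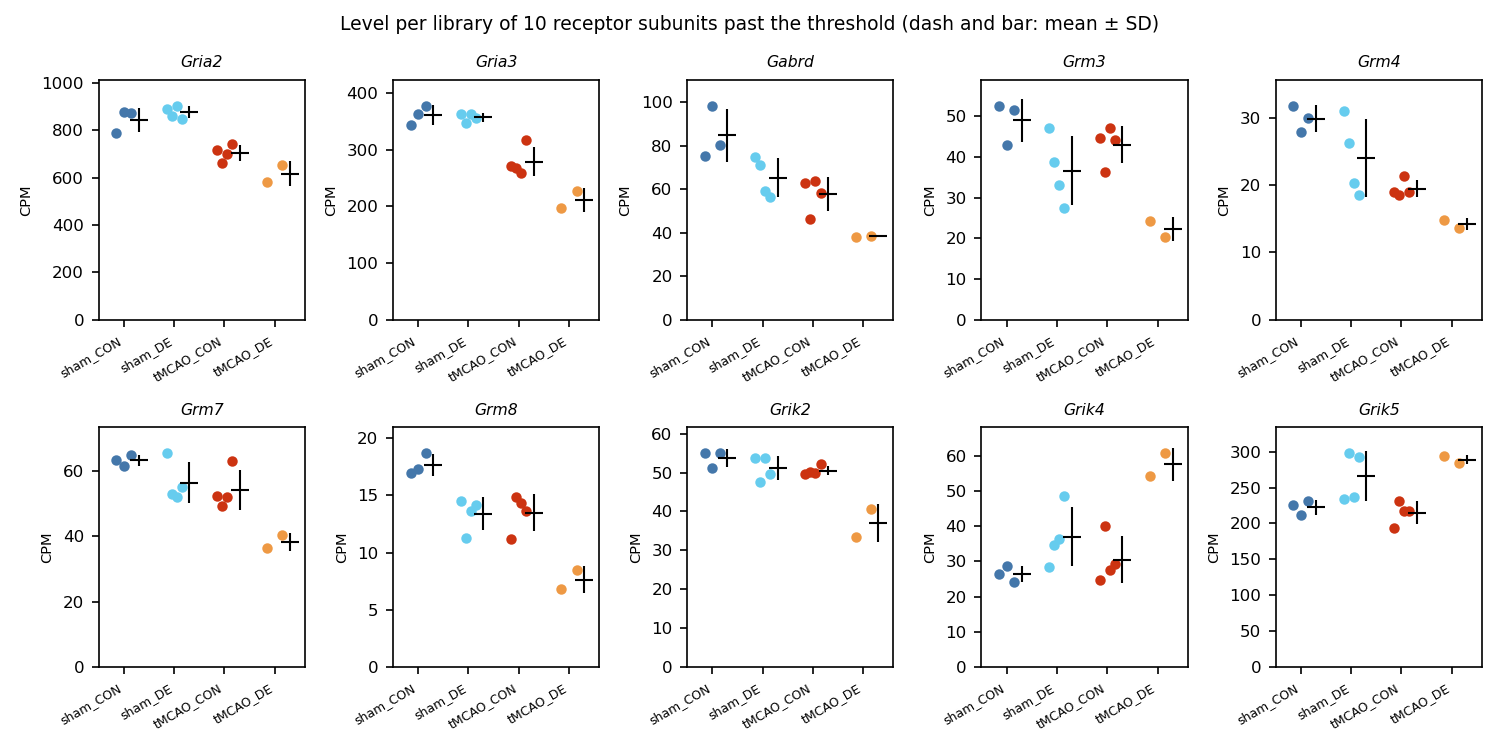
CPM (y axis, from 0) per library in the 4 groups for 10 subunits that passed the test in at least 1 comparison, with the group mean ± SD in black beside the points. The 2 tMCAO_DE libraries are the lowest for Gria2, Gria3, Gabrd, Grm3, Grm4, Grm7, Grm8 and Grik2 and the highest for Grik4.

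GABA-A subunits gave 8 lower calls over the comparisons and no higher one. Among 15 tested, 2 were lower in stroke with microglia, 3 in stroke after depletion and 3 in depletion with stroke. The shares of all genes called lower were 3.31%, 5.84% and 9.26%, in the same order. Gabrd, the delta subunit of extrasynaptic receptors that carry tonic inhibition, passed the test in 3 comparisons. It was at 75.4, 98.5 and 80.5 CPM for sham_CON, 74.7, 71.1, 59.3 and 56.7 for sham_DE, 63.0, 46.6, 63.7 and 58.3 for tMCAO_CON, and 38.0 and 38.6 for tMCAO_DE. The groups did not overlap in any of the 4 comparisons. Gabrd fell by 0.55 ± 0.13 with stroke (adjusted p = 0.019), by 0.77 ± 0.15 with stroke after depletion (0.0073) and by 0.59 ± 0.15 with depletion in stroke mice (0.019). The first call ended without replicate 2 (0.081) or 3 (0.053) of sham_CON, and the others without either library of tMCAO_DE (0.071 to 0.13).

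Gabra3, an alpha subunit common in deep cortex and brainstem, was at 184 to 195 CPM in sham_CON and 135 to 173 in tMCAO_CON, a log2 fold change of -0.32 ± 0.09 (adjusted p = 0.037). Gabrb2, a common beta subunit of synaptic receptors, was at 167 to 197 CPM in sham_DE and 129.2 and 141.9 in tMCAO_DE, a log2 fold change of -0.41 ± 0.11 (0.03). The Gabra3 call ended without any one library of sham_CON or tMCAO_DE or without replicate 1, 3 or 4 of tMCAO_CON (0.053 to 0.14). The Gabrb2 call ended without replicate 1 of sham_DE (0.056), replicate 3 of sham_DE (0.05) or either library of tMCAO_DE (0.22 and 0.11). Gabre and Gabrq, subunits of restricted expression, had the highest positive values in stroke with microglia (1.62 ± 0.83 and 1.41 ± 0.56) at 1.32 CPM or less, with adjusted p of 0.26 and 0.14.

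The GABA-B subunits were each called in 1 comparison, and not in the same one. Gabbr1, which binds GABA, was at 808, 750 and 801 CPM in sham_CON and 624, 686, 651 and 690 in tMCAO_CON, a log2 fold change of -0.25 ± 0.07 (adjusted p = 0.047). This call ended in 10 of the 13 fits that leave out a library, all but those without replicate 1, 2 or 4 of sham_DE (0.052 to 0.15). Gabbr2, which couples the receptor to G proteins, was at 421, 397, 411 and 453 CPM in tMCAO_CON and 520 and 508 in tMCAO_DE, and rose by 0.29 ± 0.09 with depletion in stroke mice (0.041). That call ended without replicate 1 of sham_CON (0.051), replicate 1, 2 or 3 of tMCAO_CON (0.06 to 0.079) or either library of tMCAO_DE (0.18 and 0.17).

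In depletion without stroke, replicate 1 of sham_DE stood nearer the controls in most members. In 30 of 43 members it was nearer to the mean of sham_CON than to that of the other sham_DE libraries. This count was not taken over all genes. With it, 9 members were lower and 4 higher at an unadjusted p under 0.05, against 2268 and 2634 of 16940 genes. No member was lower after adjustment, while DESeq2 called 2 lower and limma none. Without it, edgeR called 11 members lower and 3 higher, where 22.0% of all genes were called. That library was singled out from the same member values, so the added calls are no independent evidence of a depletion effect. Its microglial markers lay within the 26.0 to 52.8 CPM of sham_DE, against 225 CPM or more in sham_CON.

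Among the 11 lower members without that library were Gabrb1 (log2 fold change -0.37 ± 0.07, adjusted p = 0.003), Gria4, Grm3, Gabra4, Gabra3, Grm4, Grin2c, Gabbr1, Gabrd and Grm8, which ranged from -0.57 for Grm3 to -0.20 for Gabbr1. The higher ones were Grin3b (2.09 ± 0.45, 0.0065), Grik4 (0.60 ± 0.17, 0.027) and Grik5 (0.31 ± 0.09, 0.028). Gabrb1 was at 152.3, 145.5 and 166.2 CPM in sham_CON, 158 in replicate 1 of sham_DE, and 114.7, 127.1 and 117.3 in the other 3. The start of Gabrb1 overlaps that of Gabra4 on the opposite strand.

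Whether depletion altered the response to stroke was tested as the interaction, (tMCAO_DE minus sham_DE) minus (tMCAO_CON minus sham_CON). No member passed with edgeR, DESeq2 or limma. Over all genes, edgeR called 0.0472% (0.0413% lower, 0.0059% higher), DESeq2 0.656%, and limma 0.136% and 0.189% (pseudocounts 0.1 and 1). With edgeR, 10 members had an unadjusted p under 0.05. All 10 were negative (a larger fall, or a fall in place of no fall, after depletion), against 1021 negative and 626 positive genes at that level among all genes. Gria3 (-0.38 ± 0.11) and Grik2 (-0.37 ± 0.12) had the smallest adjusted p among them, 0.33 each with edgeR. So the difference between the 2 stroke comparisons was not shown for any member.

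Ratios within a receptor class do not depend on how libraries are scaled. They can still depend on properties that differ between transcripts, such as GC content, which is described below. The shares were not recomputed with a GC trend removed, so its part in them was not tested. For 8 shares of summed FPKM, differences by stroke and by depletion were averaged over both levels of the other factor and tested with an exact two-sided permutation test within strata (smallest possible p 0.0019), adjusted over 16 tests; 5 of the shares are given. GABA-A subunits made up 49.3% ± 1.02 (SD, n = 3) of GABA-A and ionotropic glutamate subunits for sham_CON, 44.9% ± 2.07 (n = 4) for sham_DE, 49.0% ± 2.49 (n = 4) for tMCAO_CON and 40.6% ± 1.09 (n = 2) for tMCAO_DE. With depletion this share differed by -6.37 points on average (exact permutation p = 0.0019, adjusted 0.015), and all depleted libraries lay below the controls of their surgery. The call held without each library in turn (adjusted p up to 0.036). The difference with stroke was -2.35 points (exact permutation p = 0.095, adjusted 0.14).

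Grik2 and Grik3 together, the principal subunits that were most abundant, made up 34.4% of kainate subunits for sham_CON, 27.0% for sham_DE, 30.3% for tMCAO_CON and 21.8% for tMCAO_DE. This share differed by -7.95 points with depletion (exact permutation p = 0.0019, adjusted 0.015) and by -4.66 with stroke (p = 0.0076, adjusted 0.024). Gabbr1 made up 48.3%, 44.5%, 46.8% and 40.4% of the GABA-B pair in the same order of groups, a difference of -5.13 points with depletion (exact permutation p = 0.0038, adjusted 0.02) and -2.83 with stroke (p = 0.019, adjusted 0.044). Both depletion calls held without each library in turn (adjusted p up to 0.036 and 0.046). The stroke call for Grik2 and Grik3 ended without replicate 1 or 2 of sham_CON (0.057) or replicate 1 of tMCAO_DE (0.061). That for Gabbr1 ended in 9 of 13 such fits (0.053 to 0.14), all but those without replicate 3 of sham_CON, replicate 2 of sham_DE, or replicate 1 or 2 of tMCAO_CON. Fewer libraries also allow fewer arrangements, which raises the smallest p such fits can give. The shares of Gria2 among AMPA subunits (-2.43 points with stroke, adjusted exact permutation p = 0.088) and of Grin2a against Grin2b did not pass for either factor.

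**Figure D4:**
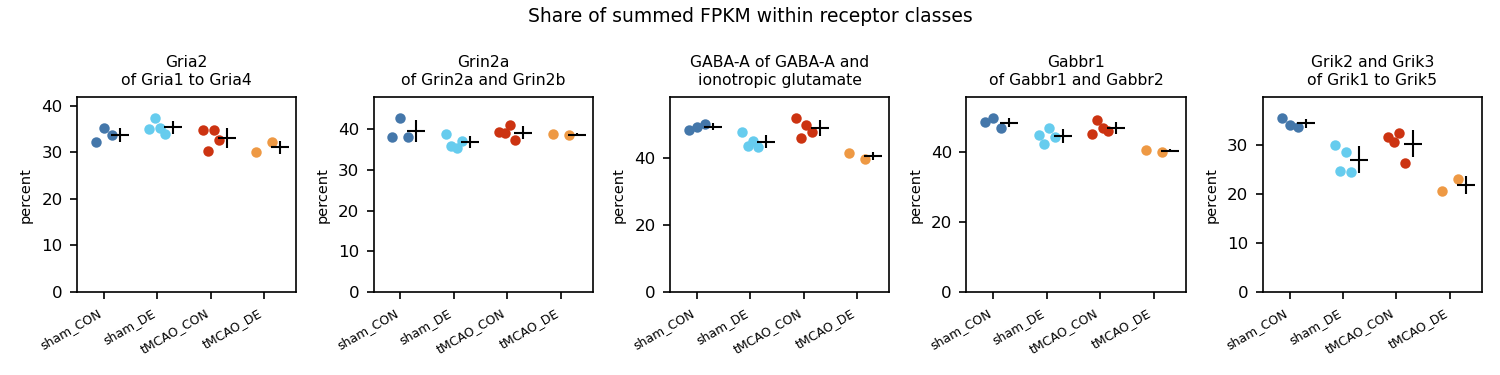
Share of summed FPKM in percent (y axis, from 0) for 5 ratios within receptor classes, 1 point per library in the 4 groups, with mean ± SD in black. The GABA-A share lies at 48.3% to 50.3% in sham_CON and at 39.8% to 41.4% in tMCAO_DE, and the Grik2 and Grik3 share at 33.7% to 35.5% and 20.6% to 23.1%.

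Partners of these receptors (50 genes, all tested) were called lower in 9 and higher in 1 case in stroke with microglia, 9 and 1 in stroke after depletion, 2 and 2 in depletion without stroke, and 5 and 1 in depletion with stroke. The shares over all genes were 3.31% lower and 5.14% higher, 5.84% and 6.59%, 4.49% and 6.85%, and 9.26% and 9.36%, in that order. In stroke with microglia, 6 of 15 excitatory scaffold genes fell, among them Shank1 (log2 fold change -0.71 ± 0.12, adjusted p = 0.0035) and Shank3 (-0.37 ± 0.09, 0.024), which organise the postsynaptic density. Glul, the astrocytic glutamine synthetase, fell too (-0.39 ± 0.06, 0.0022). Cacng5, an AMPA receptor auxiliary subunit, was the partner that rose (1.21 ± 0.20, 0.0029), from 5.08 to 5.47 CPM in sham_CON to 9.44 to 15.4 in tMCAO_CON.

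After depletion, stroke lowered Shank1 (-0.68 ± 0.14, adjusted p = 0.0088), the AMPA auxiliary subunit Cacng3 (-1.09 ± 0.24, 0.011), the scaffold Dlg2 (-0.35 ± 0.09, 0.023) and Pick1, which binds Gria2 and Gria3 (-0.32 ± 0.08, 0.026), and raised Cacng5 (0.86 ± 0.21, 0.02). In stroke mice, depletion lowered the GABA-B auxiliary subunit Kctd12 (-0.90 ± 0.16, 0.0038), the glutamate transporter of synaptic vesicles Slc17a6 (-0.88 ± 0.23, 0.02), Dlg2 (-0.32 ± 0.09, 0.026), Cacng3 (-0.78 ± 0.23, 0.035) and the kainate auxiliary subunit Neto1 (-0.38 ± 0.11, 0.038), and raised Glul (0.26 ± 0.07, 0.021). Kctd12 was also lower in depletion without stroke (-0.55 ± 0.14, 0.023). There the inhibitory synapse protein Lhfpl4 fell (-0.33 ± 0.10, 0.044), while the scaffold Gphn (0.27 ± 0.08, 0.047) and the AMPA auxiliary subunit Shisa6 (0.52 ± 0.12, 0.021) rose.

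Markers of neurons moved with these results. The 8 neuronal markers summed to 8079 to 8639 CPM for sham_CON, 7007 to 8281 for sham_DE, 6650 to 7167 for tMCAO_CON and 6183 to 6278 for tMCAO_DE. Snap25 and Syt1, synaptic vesicle release genes, were called lower in both stroke comparisons, with log2 fold changes of -0.34 and -0.33 with microglia and -0.27 and -0.31 after depletion, and Nefl, Nefm and Stmn2, axonal genes, in both depletion comparisons. Rbfox3, the nuclear marker NeuN, was higher with depletion in stroke mice (0.54 ± 0.08, adjusted p = 0.0019), so the list did not move in 1 direction. Ppp1r1b, a striatal marker, was at 372 and 338 CPM in tMCAO_DE against at most 165.5 in the other 11 libraries (1.70 ± 0.26 with stroke after depletion, 0.0022), while Drd1 was at 5.77 and 6.08 CPM there. Precursors of oligodendrocytes, which carry AMPA, kainate and GABA-A receptors, had marker sums of 187.1 to 205.8 CPM for sham_CON, 145.1 to 169.8 for sham_DE, 147.4 to 178.5 for tMCAO_CON and 111 to 122.6 for tMCAO_DE. The part of any of these in the receptor values was not tested.

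GC content of the transcript moved with the members' changes where depletion was compared in stroke mice. Spearman's rho between log2 fold change and GC content, across genes that are not independent and share their libraries, was 0.42 over the 43 members and 0.14 over 16288 genes in that comparison, 0.22 and 0.06 in stroke after depletion, 0.24 and 0.08 in depletion without stroke, and 0.02 and -0.03 in stroke with microglia. With the trend on GC content removed from each library, a setting chosen after seeing the data, 8, 12, 0 and 10 members were called lower and 0, 0, 1 and 2 higher, in the order stroke with microglia, stroke after depletion, depletion without stroke and depletion with stroke. Of all genes, 8.84%, 12.8%, 11.7% and 18.7% were called, in the same order. The calls of Grik4 in stroke after depletion and of Gabbr2 in depletion with stroke were lost.

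**Figure D5:**
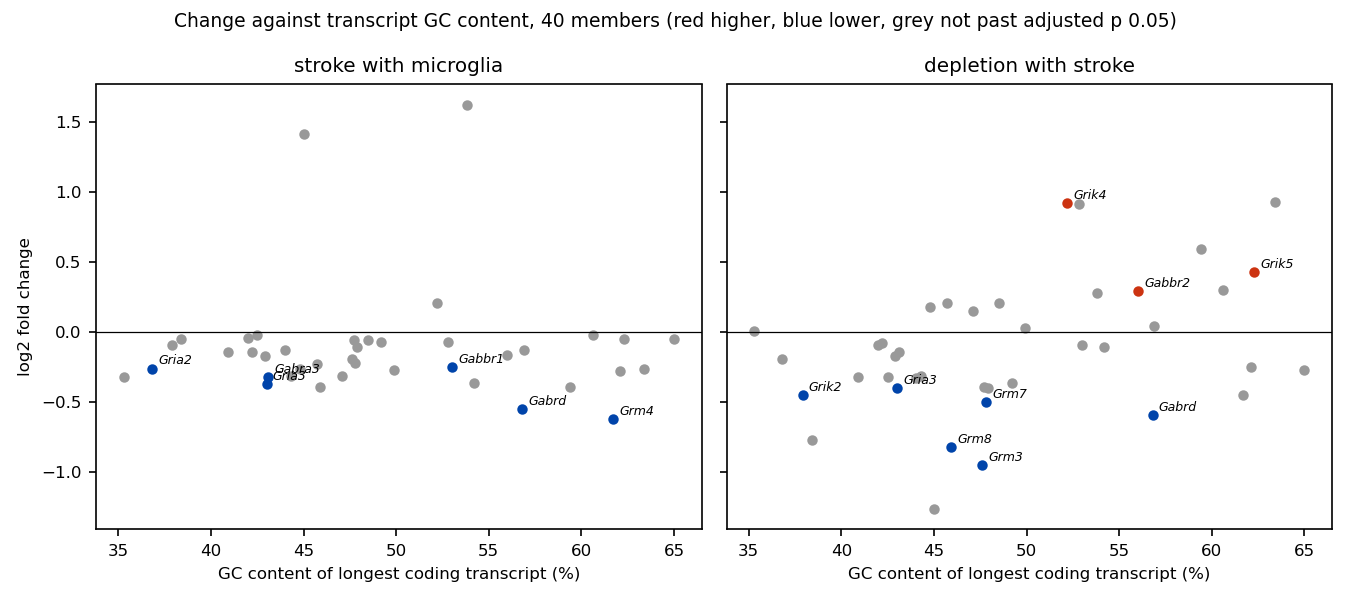
Log2 fold change (y axis) of 40 tested members against the GC content of the longest coding transcript in percent (x axis), for stroke with microglia (left) and depletion with stroke (right), with calls in red (higher) and blue (lower). Over all 43 tested members, Spearman's rho is 0.02 on the left and 0.42 on the right.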

How the data were processed

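RNA of 13 brain samples was sequenced as paired-end TruSeq libraries, per the labels' protocols. The authors deposited 4 tables, 1 per group, with a raw count per gene and library, per the file headers. The FPKM values the authors deposited beside them are scaled to gene length and library size. Cufflinks 2.1.1, Cuffdiff and build mm10 are named in the submitters' processing notes. The sources used here name no aligner or counter and do not say whether strand was used. Names turned into dates (25 in the sham tables, 26 in the stroke tables) were left out.

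Counts were scaled with TMM, filtered with filterByExpr (minimum count 10; 4116 genes removed) and fitted with edgeR 4.0.16 in R 4.3.3 as 4 group means over 13 libraries, two-sided, with Benjamini-Hochberg adjustment. The size of the log2 fold change over the root of its F statistic served as standard error. The coefficient of variation was 15.2%. Alternatives used DESeq2 1.42.0, limma 3.58.1 (pseudocounts 0.1 and 1), other filters and left-out libraries, and the fit was tested on simulated data. Nothing states that libraries are separate litters or days, so p-values measure the spread between these samples.

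Members and lists were chosen with earlier results of these data known. Named were members past the threshold in any comparison, the member of highest FPKM in each class, members in counts of 5 or fewer, and up to 6 partners per comparison. Others were named after their values were seen. Some genes and the shares that need them are not reported here, but they remain in all fits, counts and adjustments. Coordinates are from GENCODE M21 on GRCm38, the build called mm10.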

Additional observations from a re-analysis of the deposited data

Results flagged for a closer look

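Grin3a in sham_DE had a library far from the others. Replicate 1 was at 41.4 CPM and the other 3 at 32.1 to 33.5, a gap of 0.857 of the group's range, above Dixon's critical value for 4 samples. It was the 1 case among 48 groups tested, and chance alone gives about 1 in 20.

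The share of Gria2 among AMPA subunits differed with depletion in opposite directions in the 2 surgery groups, by 1.64 points in sham mice and by -1.96 points in stroke mice. The difference between them was not tested.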

How the results depend on the processing

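Over 594 refits of the 27 called changes named here, 488 stayed past the threshold, 106 did not, and 0 changed sign. The cause of the changes in count was not tested. In stroke with microglia, 6 members were lower, and 11 were with DESeq2, 3 with limma on log2 FPKM with either pseudocount, 1 with the replicate block and 2 without sham_CON 2 and sham_DE 3 together (the libraries with high S100a8 and S100a9). Of all genes, 8.44% were called there, against 11.8% with DESeq2 and 10.5% and 10.2% with limma. The block gave 5.66%, and the fit without those libraries together 5.67%. In stroke after depletion, 1 was higher, against 0 without a filter, with only the groups compared, without those libraries together and with the GC trend removed, and 2 with the block. The share of all genes called was 12.4%, against 8.84%, 6.91%, 9.3%, 12.8% and 7.92% in these settings, in the same order. In depletion without stroke, 1 was higher, against 2 with DESeq2 and with limma (pseudocount 0.1). None was with the block, with only the groups compared or without those libraries together. There 0 were lower, against 2 with DESeq2 and 1 with only the groups compared. Of all genes, 11.3% were called, against 15.1% with DESeq2 and 10.7% with limma (pseudocount 0.1). The block gave 4.86%, only the groups compared 4.05%, and the fit without those libraries together 1.3%. In depletion with stroke, 8 were lower, against 13 with DESeq2, limma (either pseudocount) or only the groups compared. The share of all genes was 18.6%, against 21.8% with DESeq2, 18.2% and 18.3% with limma and 17.9% with only the groups compared. Same-numbered libraries did not deviate together (r from -0.079 to 0.11, 1 of 16 pairs over 0.1), so the block is no pairing.

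Leaving out each library in turn gave 0 to 8 lower members in stroke with microglia, 0 to 1 higher and 3 to 14 lower in stroke after depletion, 0 to 3 higher and 0 to 11 lower in depletion without stroke, and 0 to 4 higher and 2 to 15 lower in depletion with stroke. The share of all genes called moved too, from 3.33% to 10.7% in stroke with microglia and from 3.49% to 22.0% in depletion without stroke. In the other comparisons it was lowest without a tMCAO_DE library. The arm with 1 tMCAO_DE library is assumed to vary like the others. The share of Gria2 with depletion (-0.16 points) ranged from -0.67 to 0.35. With stroke the same range in points was -2.93 to -1.92 for Gria2, -2.83 to -1.88 for GABA-A, -3.21 to -2.42 for Gabbr1 and -5.28 to -4 for Grik2 and Grik3. No comparison has more than 4 libraries a group, and members under about 1 CPM rest on few reads.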
